A study of Mus musculus with 72 samples.

Results

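A set of 9 genes of the fasting and fat oxidation programme of the heart was followed in mouse hearts 16 months after a single exposure to radiation: Pdk4, Ucp3, Cpt1a, Cpt1b, Angptl4, Acot1, Acot2, Ppara and Plin5. They were taken by gene symbol, from a list drawn up with earlier results of these data known, and are 9 of the 19505 genes tested. Each is read by 1 probe set of the Clariom S Mouse array. The hearts came from female CB6F1/Hsd mice, 100 to 120 days old at exposure, that received one full-body dose of Cs gamma rays (40, 80, 120 or 160 cGy), of Si ions (260 MeV/n, LET about 70 keV/µm; 4, 8, 16 or 32 cGy) or of Ti ions (1000 MeV/n, LET about 100 keV/µm; 3, 6.5, 13 or 26 cGy). Each radiation type had sham mice of its own, held in the same plastic holders without irradiation, so that no sham group is shared between types and all 4 doses of a type share 1. There were 72 arrays, 1 per heart, in 15 groups of 5 hearts, except the Cs 160 cGy, Si sham and Ti 6.5 cGy groups with 4. The hearts were archived, whole and from mice without tumours, and neither the hour nor the feeding state at collection is given in the sources used here.

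The heart draws most of its energy from fatty acids and shifts further towards them during a fast. PPAR alpha, the nuclear receptor encoded by Ppara, binds fatty acids and switches on genes of their oxidation. Pdk4 phosphorylates and so shuts down the pyruvate dehydrogenase complex, which keeps glucose carbon out of the citric acid cycle. Cpt1a and Cpt1b are the liver and muscle forms of the carnitine palmitoyltransferase that commits long-chain fatty acids to mitochondria, Ucp3 is a mitochondrial carrier of muscle and heart, Angptl4 is a secreted inhibitor of lipoprotein lipase, Acot1 (cytosolic) and Acot2 (mitochondrial) hydrolyse fatty acyl-CoA, and Plin5 coats lipid droplets and ties them to mitochondria. Known targets of PPAR alpha include Pdk4, Ucp3, Cpt1a, Angptl4, Acot1, Acot2 and Plin5, a list that is not exhaustive. Acot1 and Acot2 are closely related genes that lie next to each other, with 0 protein-coding genes between them. Whether their probe sets share signal was not tested.

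The proximal promoters of Pdk4, Ucp3, Cpt1a and Acot2 are shown because these genes rose together at the highest Cs dose. They are the 250 bases before the annotated start, in the direction of transcription, from RefSeq on GRCm38.p6, where 7 of the 9 genes have an entry (all but Cpt1b and Angptl4). Capitals mark the nuclear receptor half-site AGGTCA, read on either strand.
Pdk4 (chr6:5496279-5496528, minus strand): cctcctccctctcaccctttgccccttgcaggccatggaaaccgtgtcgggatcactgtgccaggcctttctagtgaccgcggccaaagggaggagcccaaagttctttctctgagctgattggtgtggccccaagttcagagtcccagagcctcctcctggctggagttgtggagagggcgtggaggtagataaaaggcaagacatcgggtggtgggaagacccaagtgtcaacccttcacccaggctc
Ucp3 (chr7:100472741-100472990, plus strand): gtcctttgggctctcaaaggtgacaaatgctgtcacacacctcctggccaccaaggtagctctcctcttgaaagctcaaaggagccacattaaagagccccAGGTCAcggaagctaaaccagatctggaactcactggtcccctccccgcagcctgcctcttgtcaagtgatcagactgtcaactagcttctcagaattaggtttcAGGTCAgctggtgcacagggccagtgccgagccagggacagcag
Cpt1a (chr19:3323051-3323300, plus strand): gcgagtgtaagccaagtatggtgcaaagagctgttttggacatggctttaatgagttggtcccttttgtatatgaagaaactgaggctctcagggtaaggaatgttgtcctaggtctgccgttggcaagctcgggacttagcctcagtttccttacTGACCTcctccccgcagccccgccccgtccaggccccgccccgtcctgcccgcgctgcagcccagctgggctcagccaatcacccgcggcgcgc
Acot2 (chr12:83987611-83987860, plus strand): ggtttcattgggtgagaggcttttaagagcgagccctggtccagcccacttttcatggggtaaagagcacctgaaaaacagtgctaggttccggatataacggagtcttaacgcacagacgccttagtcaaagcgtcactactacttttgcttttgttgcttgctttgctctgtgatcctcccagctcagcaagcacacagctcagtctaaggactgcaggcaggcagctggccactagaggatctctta
The half-site occurred in 3 of the 7 genes, against 14% of all 32851 promoter entries of this length. The first is counted per gene, in any of its entries (Plin5 has 2), and the shares of all promoters are counted per entry. In Ucp3 it began 149 and 44 bases before the start, in Cpt1a it lay on the opposite strand with its first base 94 bases before the start, and in Plin5 it began 170 bases before the first of its 2 annotated starts. A direct repeat of the half-site with 1 base between its copies was read in 0 of the 7 (0.0335% of all promoters), and the E-box CACGTG in 0 (6.02% of all). These matches describe letters in a short window and were not tested against the expression values.

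Values are log2 signals after quantile normalization, and the values of single hearts are given after removal of the difference between the 2 processing batches. That difference was estimated over all 72 arrays, whereas each fit per radiation type estimated its own. Where batches are unevenly spread over the groups, the single values therefore do not average to the fitted difference. For Acot2 at Cs 160 cGy the means were 10.56 and 9.97 (sham), and the fitted difference was 0.68. A gene counts as called where its adjusted p was under 0.25 in a limma fit per radiation type with group and batch as terms. On the arrays, all 9 exceeded the median signal of 5222 negative controls on 72 of 72 arrays, and all but Acot1 (66 arrays) exceeded their 90th percentile on 72. Mean log2 signals over the hearts were 10.80 for Cpt1b, 10.16 for Pdk4, 10.02 for Acot2, 8.28 for Ucp3, 8.18 for Plin5, 7.94 for Ppara, 7.90 for Cpt1a, 7.51 for Angptl4 and 6.29 for Acot1. These depend on each probe set and do not rank the genes by transcript number. Markers of ventricular cardiomyocytes were high in every heart (8 of 8 genes above the 90th percentile of the negative controls on 72 arrays), those of white fat, liver and atrium varied widely between hearts, and, in tissue of many cell types, fewer cells of a type and less RNA per cell cannot be told apart.

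Single hearts differed from each other most in Pdk4, which ranged from 8.52 to 11.54, a span of 3.02 log2 units. Ucp3 spanned 2.63, Angptl4 2.17, Acot2 2.10 and Acot1 1.65. Ppara spanned 1.12, Cpt1a 0.93, Plin5 0.83 and Cpt1b, the muscle carnitine palmitoyltransferase, 0.58. These spans are on each probe set's own scale.

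**Figure D1:**
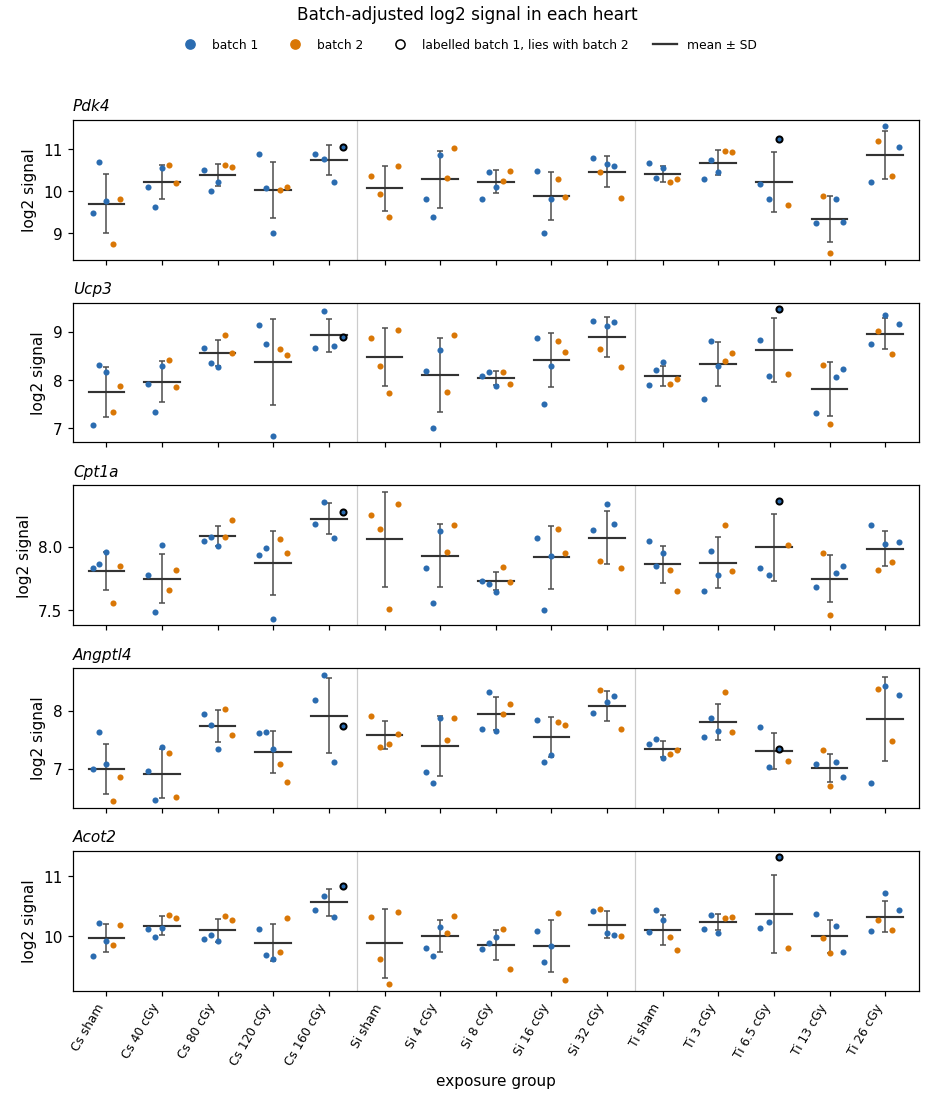
Batch-adjusted log2 signal (y axis) of Pdk4, Ucp3, Cpt1a, Angptl4 and Acot2 in each of the 72 hearts, by exposure group (x axis); points are hearts, coloured by processing batch, and bars are the group mean ± SD. The Cs 160 cGy hearts lie above all Cs sham hearts for Ucp3, Cpt1a and Acot2, and the Ti 13 cGy hearts lie below all Ti sham hearts for Pdk4.

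The processing batch moved most of the genes and is given first. Between batch 2 (29 arrays) and batch 1 (43 arrays), 8 of the 9 genes were higher in batch 2, where 33.4% of all genes were called higher and 65.2% were called in either direction. Pdk4 was higher by 0.72 ± 0.13 (SE) and Acot2 by 0.72 ± 0.08, followed by Ucp3 (0.63), Plin5 (0.37), Acot1 (0.32), Ppara (0.32), Cpt1b (0.23) and Cpt1a (0.22). Angptl4 differed by -0.02 (adjusted p = 0.892). The Cs 160 cGy group had 0 arrays in batch 2, the Si sham group 0 in batch 1 and the Ti 6.5 cGy group 1 in batch 2, and there the correction rests on the batch difference of other groups. On the first principal component, with 18.4% of the variance, 2 arrays with a batch 1 label, Cs 160 cGy replicate 4 (15.02) and Ti 6.5 cGy replicate 3 (20.5), lay within the range of batch 2 (4.06 to 26.6) and outside that of the other batch 1 arrays (-22.1 to -4.23). The calls at Cs 160 and Ti 6.5 cGy are given with and without them.

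**Figure D2:**
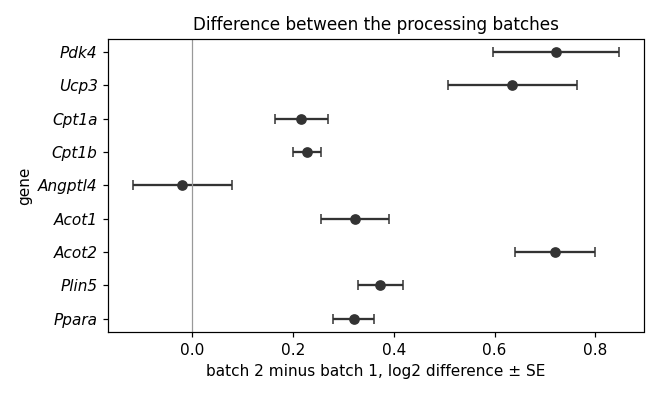
Difference between the processing batches (x axis, batch 2 minus batch 1, log2) for each of the 9 genes (y axis), with SE as error bars. The difference is 0.72 for Pdk4 and for Acot2 and -0.02 for Angptl4.

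The first question is whether the genes differed from sham at any dose of Cs gamma rays. At 160 cGy, 5 of the 9 genes rose: Ucp3 2.36-fold, Pdk4 2.05-fold, Angptl4 1.74-fold, Acot2 1.60-fold and Cpt1a 1.34-fold. Of all genes, 6.91% were called at this dose and 3.12% were called higher. The median difference of the 9 genes was 0.42 on the log2 scale, against -0.00 over all genes tested. At an unadjusted p under 0.05 there were 6 of 9, against 13.2% of all genes. Acot1 (0.38, adjusted p = 0.276), Cpt1b (0.14, adjusted p = 0.405), Plin5 (-0.04) and Ppara (-0.14) did not pass. The 5 rises are measured from the Cs sham hearts, whose mean of Ucp3 (7.75) was the lowest of the 15 groups. Cs sham minus Si sham was -0.73 for Ucp3, -0.57 for Angptl4, -0.37 for Pdk4, -0.25 for Cpt1a and 0.08 for Acot2. Against Ti sham these were -0.34, -0.34, -0.71, -0.05 and -0.14. None of these was called (5.67% and 0.113% of all genes were).

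Acot2, the mitochondrial acyl-CoA thioesterase, read 10.44, 10.67, 10.31 and 10.83 in the 4 Cs 160 cGy hearts and 9.67, 10.22, 9.92, 9.86 and 10.19 in the 5 sham hearts. All exposed hearts lay above all sham hearts, as was so for 1.58% of all genes. Replicate 4, 1 of the 2 arrays that lay with batch 2, was taken as batch 1 here, and the correction raised its value. Whether the groups overlap with it counted to batch 2 was not determined. The difference was 0.68 ± 0.14 (SE; adjusted p = 0.033), the smallest adjusted p among the 9 genes and the only one of the 5 calls that also passed 0.05 (0.226% of all genes did). Without the 2 arrays that lay with the other batch it was 0.59 (adjusted p = 0.086), and with them counted to batch 2 it was 0.43 (adjusted p = 0.276). In 1 fit of all 72 arrays it was 0.59 and did not pass (adjusted p = 0.271).

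Ucp3, the mitochondrial carrier, read 8.67, 9.43, 8.70 and 8.89 at 160 cGy and 7.08, 8.30, 8.17, 7.34 and 7.87 in sham hearts, without overlap. This too takes replicate 4 as batch 1, where the correction raised its value from 8.57 to 8.89. The difference of 1.24 ± 0.34 (adjusted p = 0.108) was 1.25 without the 2 arrays (adjusted p = 0.174) and 1.02 with them counted to batch 2 (adjusted p = 0.303). Cpt1a, the liver form of the transferase, read 8.18, 8.36, 8.07 and 8.28 against 7.83, 7.86, 7.96, 7.55 and 7.85, again without overlap and with replicate 4 taken as batch 1. Its difference was 0.42 ± 0.12 (adjusted p = 0.124), 0.41 without the 2 arrays (adjusted p = 0.210) and 0.36 with them counted to batch 2 (adjusted p = 0.289).

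Pdk4, the kinase of pyruvate dehydrogenase, read 10.89, 10.78, 10.23 and 11.04 at 160 cGy and 9.47, 10.70, 9.77, 8.75 and 9.82 in sham hearts. The groups overlapped, since sham replicate 2 (10.70) lay above exposed replicate 3 (10.23). The difference was 1.04 ± 0.33 (adjusted p = 0.163). It no longer passed without Cs 160 cGy replicate 4 (0.93, adjusted p = 0.282), without sham replicate 1 (0.97, adjusted p = 0.295) or without sham replicate 4 (0.84, adjusted p = 0.269), nor with the 2 arrays counted to batch 2 (0.85, adjusted p = 0.356).

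Angptl4, the lipase inhibitor, read 8.18, 8.62, 7.12 and 7.74 at 160 cGy and 6.999, 7.63, 7.09, 6.44 and 6.87 in sham hearts. Exposed replicate 3 lay among the sham hearts and the other 3 lay above them all. The difference was 0.80 ± 0.26 (adjusted p = 0.175) and did not pass without exposed replicate 1 (0.71, adjusted p = 0.289) or 2 (0.56, adjusted p = 0.352), nor without sham replicate 1 (0.76, adjusted p = 0.301), 3 (0.79, adjusted p = 0.255) or 4 (0.71, adjusted p = 0.296). Without the 2 arrays it was 0.86 (adjusted p = 0.216), and with them counted to batch 2 it was 0.87 (adjusted p = 0.208).

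Within batch 1 alone, the only batch with hearts at 160 cGy, the differences were 1.07 for Ucp3, 0.75 for Pdk4, 0.67 for Angptl4, 0.63 for Acot2 and 0.34 for Cpt1a. None of these 5 reached an adjusted p under 0.25 in that smaller fit (0.303 to 0.560), and without replicate 4 they were 1.09, 0.65, 0.73, 0.54 and 0.32. Clock genes moved in the same comparison: 11 of 12 were called, 8 higher and 3 lower, led by Arntl, the activator of the circadian clock (-2.25), and Dbp, a clock output (1.62). Clock genes were also called where none of the followed genes was. At Cs 40 and 80 cGy, Arntl was at -1.33 and -0.64 and Dbp at 1.44 and 1.12. At Si 4, 8 and 32 cGy, Arntl moved the other way (2.24, 2.21 and 1.83). It was higher in Cs sham than in Si sham hearts by 2.19. No clock gene was called at Si 16, Ti 3 or Ti 26 cGy, or between Cs and Ti sham hearts. Of the marker lists, white fat had 0 of 5 called (median difference -0.50), brown fat 0 of 3 (-0.31), liver 0 of 8 (-0.13), skeletal muscle 0 of 7 (-0.13), atrium 0 of 4 (0.58), ventricle 1 of 8 (Myl3, -0.30) and blood 1 of 3 (Alas2, a red cell gene, 0.95). The mean log2 signal of the 5 white fat markers ran from 3.69 to 5.40 in the exposed and from 4.16 to 5.44 in the sham hearts. The mean of the 12 clock genes ran from 7.22 to 7.52 in the exposed and from 6.88 to 7.22 in the sham hearts. Without the 2 arrays, 10 of the 12 clock genes were called, Alas2 was not, and Myh2 of skeletal muscle was (0.46). Myh2 exceeded the 90th percentile of the negative controls on 0 arrays. The medians of white fat and liver were then -0.98 and 0.04. The part of the clock and of other cell types in the 5 rises was not tested.

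At 40, 80 and 120 cGy these 5 genes did not pass. At 80 cGy, 0 of the 9 genes were called (0.482% of all genes) and 5 had an unadjusted p under 0.05 in limma (6.87% of all genes). Angptl4 was at 0.72 ± 0.24 (adjusted p = 0.471), Ucp3 at 0.80 ± 0.31 (adjusted p = 0.609), Pdk4 at 0.69 ± 0.30 (adjusted p = 0.684) and Cpt1a at 0.28 ± 0.11 (adjusted p = 0.625), all above sham, and Ppara at -0.20 ± 0.09 (adjusted p = 0.688). The 5 hearts at 80 cGy read 8.05, 8.08, 8.01, 8.08 and 8.22 for Cpt1a and lay above all sham hearts, as did 0.754% of all genes. Within batch 2 alone, Pdk4 (1.31), Ucp3 (1.13) and Angptl4 (1.15) passed at 80 cGy, with adjusted p of 0.202, 0.166 and 0.213. That comparison held 2 exposed and 2 sham hearts, and the share of all genes called in it was not counted. At 40 cGy, 0 of 9 were called (0.22% of all genes) and 1, Ppara (-0.21 ± 0.09, adjusted p = 0.913), had an unadjusted p under 0.05 in limma (5.12% of all genes).

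At 120 cGy, 1 of the 9 genes was called, Ppara, which fell by 0.36 ± 0.09 (adjusted p = 0.195), where 0.682% of all genes were called and 0.374% called lower. Its hearts read 7.87, 7.54, 7.97, 7.64 and 7.79, against 8.26, 8.25, 7.84, 8.14 and 8.10 in the Cs sham hearts. Exposed replicates 1 and 3 lay above sham replicate 3, and the other exposed hearts lay below all sham hearts. Within batch 1 the difference was -0.32 and within batch 2 -0.41, neither of which passed (adjusted p = 0.867 and 0.446). At this dose 9 of 12 clock genes were called, 6 higher and 3 lower (Arntl -2.11, Dbp 1.49), as was S100a8, a neutrophil gene (0.83), the liver list had 0 of 8 called (median 0.30), and their part in the fall of Ppara was not tested. Leaving out any of sham replicates 1, 2, 4 and 5 or exposed replicates 2 and 4 raised the adjusted p to 0.364 to 0.476, with differences of -0.29 to -0.35. Ucp3 (0.62, adjusted p = 0.639), Pdk4 (0.32) and Plin5 (-0.22, adjusted p = 0.550) did not pass at this dose. With Plin5, 2 of 9 had an unadjusted p under 0.05, against 8.04% of all genes.

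On a straight line over the Cs doses, Ucp3 alone of the 9 genes was called, with a slope of 0.71 ± 0.18 log2 units per 100 cGy (adjusted p = 0.159; 1.55% of all genes were called, 0.605% upward). Of the 9 genes, 6 had an unadjusted p under 0.05 (10.5% of all genes), among them Angptl4 (0.48, adjusted p = 0.270) and Cpt1a (0.23, adjusted p = 0.278). The call of Ucp3 was lost without Cs sham replicate 1 (0.62, adjusted p = 0.312) or 4 (0.65, adjusted p = 0.264). The means of Ucp3 did not rise evenly: sham hearts averaged 7.75, the 40 cGy hearts 7.97, those of 80 and 120 cGy 8.55 and 8.38, and the 160 cGy hearts 8.92. On the lines for Si and Ti doses, 0 genes of all were called (0%). At an unadjusted p under 0.05 there were Ucp3 and Angptl4 for Si (5.13% of all genes) and Ucp3 and Ppara for Ti (5.65%).

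**Figure D3:**
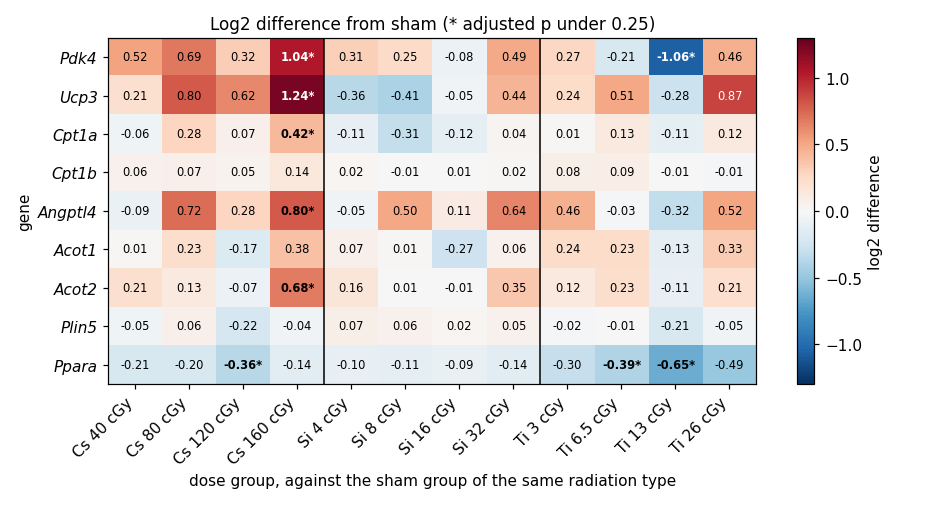
Log2 difference between exposed hearts and their own sham hearts for the 9 genes (rows) at the 12 doses (columns), coloured from blue (lower) to red (higher), with an asterisk where the adjusted p was under 0.25. The called rises are the 5 at Cs 160 cGy, the called falls are Ppara at Cs 120, Ti 6.5 and Ti 13 cGy and Pdk4 at Ti 13 cGy, and all 12 differences of Ppara lie below 0.

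For Si ions, 0 of the 9 genes were called at 4, 8, 16 or 32 cGy, where 0.159%, 0.128%, 0.0205% and 0.0513% of all genes were called in limma. At an unadjusted p under 0.05 there were 0, 1, 0 and 1 (6.49%, 5.16%, 4.49% and 6.41% of all genes), and the gene was Angptl4 both times. It stood at 0.50 ± 0.23 at 8 cGy (adjusted p = 0.944) and 0.64 ± 0.23 at 32 cGy (adjusted p = 0.734). The 32 cGy hearts read 7.97, 8.35, 8.14, 8.25 and 7.69 for Angptl4 and the Si sham hearts 7.91, 7.38, 7.43 and 7.60, so that 4 of the 5 exposed hearts lay above all sham hearts. Pdk4 stood between -0.08 and 0.49 at the 4 doses, and its 95% interval at 32 cGy ran from -0.20 to 1.19, which includes a rise as large as the 1.04 seen at Cs 160 cGy. The median of the 9 genes was 0.06 at 32 cGy and between -0.05 and 0.02 at the lower doses.

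For Ti ions, 0 of the 9 genes were called higher at any dose. At 13 cGy, 2 of the 9 genes fell, Ppara by 0.65 ± 0.11 (adjusted p = 0.052) and Pdk4 by 1.06 ± 0.28 (adjusted p = 0.232), where 0.426% of all genes were called and 0.2% called lower. All 9 genes had a difference below 0 at this dose, with a median of -0.21, against -0.01 over all genes, and 2 had an unadjusted p under 0.05 (8.51% of all genes). The smallest was that of Cpt1b (-0.01). These signs are not independent, since the genes share the same hearts and most of them varied together from heart to heart. At 6.5 cGy, 1 was called, Ppara, at -0.39 ± 0.12 (adjusted p = 0.175; 5.6% of all genes were called and 2.88% called lower). At 3 cGy and 26 cGy, 0 were called (0.0103% and 0% of all genes in limma), with 1 and 3 at an unadjusted p under 0.05 (8.93% and 7.08% of all genes).

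Ppara, the receptor, read 8.37, 8.32, 8.61, 8.45 and 8.30 in the Ti sham hearts. At 13 cGy it read 7.49, 7.92, 7.81, 7.96 and 7.64 and at 26 cGy 7.84, 7.87, 8.06, 7.98 and 7.85. Both groups lay below all sham hearts, which was so for 0.954% of all genes at 13 cGy and for 0.713% at 26 cGy. At 6.5 cGy it read 8.01, 7.97, 8.30 and 7.79, and at 3 cGy 8.10, 8.19, 7.81, 8.32 and 8.16. Both of these groups overlapped the sham hearts, the first barely and only through replicate 3, one of the 2 arrays that lay with the other batch.

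The fall of Ppara at 13 cGy passed in all 24 fits that left out 1 heart (-0.70 to -0.58, highest adjusted p = 0.180), and it was -0.74 within batch 1 and -0.51 within batch 2 (adjusted p = 0.394 and 0.775). At 6.5 cGy it did not pass without Ti sham replicate 1 (-0.40, adjusted p = 0.295) or 3 (-0.33, adjusted p = 0.389) or without exposed replicate 2 (-0.38, adjusted p = 0.377), and it was -0.48 without the 2 arrays (adjusted p = 0.192). Within batch 1 it was -0.34 and within batch 2, with 1 exposed heart, -0.58. At 26 cGy the difference of -0.49 ± 0.11 had an adjusted p of 0.337, and of 0.2 without the 2 arrays.

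Pdk4 read 10.68, 10.32, 10.55, 10.21 and 10.29 in the Ti sham hearts and 9.23, 9.88, 8.52, 9.82 and 9.27 at 13 cGy. The groups did not overlap. The difference was -1.07 within batch 1 and -1.05 within batch 2. The call was lost in 8 of the 24 fits that left out 1 heart, those without sham replicates 1 or 3, 3 cGy replicates 2 or 3, or 13 cGy replicates 1, 3, 4 or 5, with differences of -1.17 to -0.86 and adjusted p of 0.254 to 0.420.

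At 26 cGy, Ucp3 read 8.74, 9.01, 9.35, 8.55 and 9.17 against 7.91, 8.21, 8.38, 7.91 and 8.03 in Ti sham hearts. All exposed hearts were above all sham hearts, as for 0.487% of all genes. The difference of 0.87 ± 0.26 did not pass (adjusted p = 0.486), nor did that of Angptl4 at 26 cGy (0.52 ± 0.23, adjusted p = 0.687). At 3 cGy, Angptl4 read 7.54, 7.87, 7.65, 8.32 and 7.64, against 7.42, 7.52, 7.19, 7.26 and 7.32 in Ti sham hearts. These groups did not overlap either, as for 0.482% of all genes, and the difference of 0.46 ± 0.23 did not pass (adjusted p = 0.565). Liver markers were higher than in sham hearts in 8 of 8 cases at both 6.5 and 13 cGy, with 2 of 8 (Serpina1a and Fgb) and 0 of 8 called and medians of 0.92 and 0.62. Of the clock genes, 5 of 12 were called at 6.5 cGy and 2 of 12 at 13 cGy, with Arntl at -1.43 and -1.32. Without the 2 arrays, 0 of 8 liver markers were called at either dose (medians 0.86 and 0.62), and 2 and 5 of the 12 clock genes. The part of either in the falls of Ppara and Pdk4 was not tested.

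**Figure D4:**
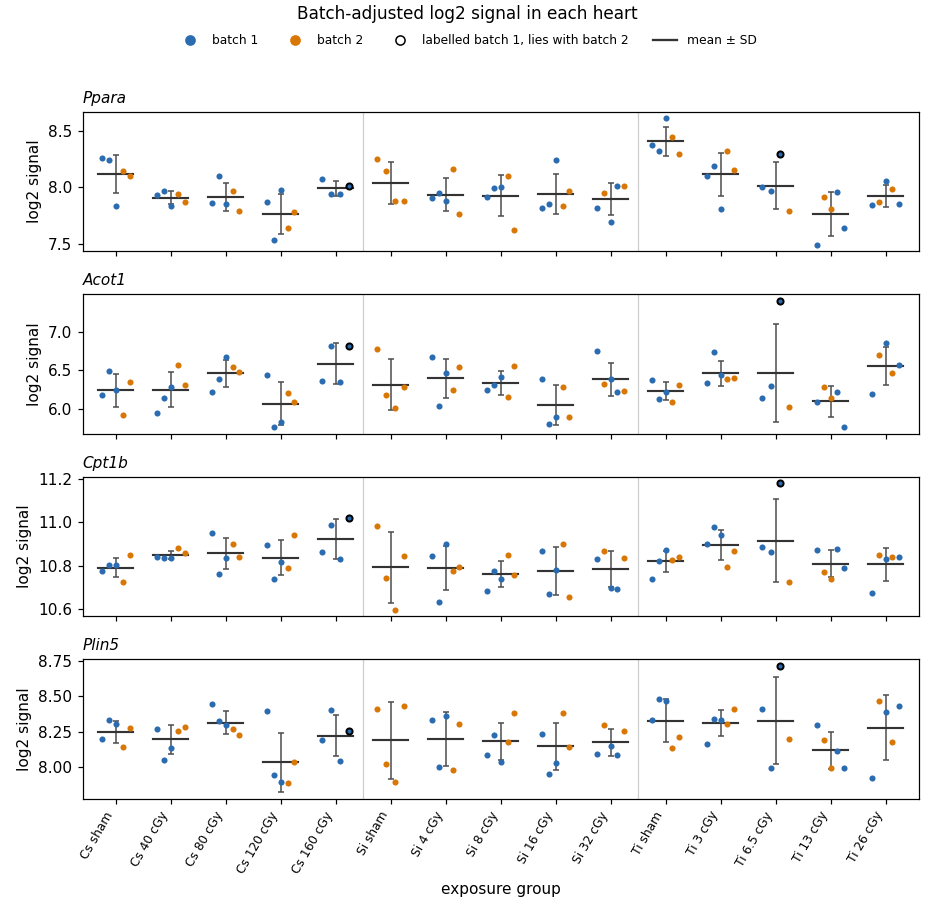
Batch-adjusted log2 signal (y axis) of Ppara, Acot1, Cpt1b and Plin5 in each heart by exposure group (x axis); points are hearts, coloured by processing batch, and bars are the group mean ± SD. The Ti sham hearts hold the highest mean of Ppara of the 15 groups (8.41), and the ringed Ti 6.5 cGy heart is the highest of its group for all 4 genes.

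The sham groups themselves differed in Ppara. Its mean was 8.41 ± 0.13 (SD, n = 5) in Ti sham, 8.12 ± 0.17 (n = 5) in Cs sham and 8.04 ± 0.19 (n = 4) in Si sham hearts. Si sham lay below Ti sham by 0.37 ± 0.11 (SE; adjusted p = 0.110, in a comparison where 6.35% of all genes were called and 3.42% called lower), and Cs sham below Ti sham by 0.29 ± 0.10 (adjusted p = 0.413). Without Si sham replicate 3 the first difference was -0.32 and did not pass (adjusted p = 0.356). Between Si and Ti sham, 8 of 12 clock genes were called, 6 higher and 2 lower (Ciart 1.94, Arntl -1.75), and so were the liver genes Alb (4.41) and Ahsg (1.47), 2 of 8 in a list with a median of 1.496. Their part in the difference of Ppara was not tested. Of the other 8 genes, 0 were called between any of the sham groups, with 5.67% (Cs against Si), 0.113% (Cs against Ti) and 6.35% of all genes called, with an unadjusted p under 0.05 in limma for Ucp3 and Angptl4 between Cs and Si sham (12.8% of all genes) and for Pdk4 and Ppara between Cs and Ti sham (8.6%). Pdk4 averaged 9.70 ± 0.70 in Cs sham, 10.07 ± 0.54 in Si sham and 10.41 ± 0.19 in Ti sham hearts.

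Averaged over the 4 doses of a type, a comparison added after the values had been seen, Ppara was lower than sham by 0.46 ± 0.08 in Ti hearts (adjusted p = 0.0099; 1.72% of all genes were called and 0.851% called lower). It passed in all 72 fits that left out 1 heart, and did not pass with array medians aligned in place of quantile normalization (-0.40, adjusted p = 0.273). In Cs hearts the same value was -0.22 ± 0.08 (adjusted p = 0.522) and in Si hearts -0.11 ± 0.09 (adjusted p = 0.639), with 0 of 9 genes called in either (0.436% and 3.15% of all genes). The Ti value rests on the Ti sham group, whose mean is the highest of all groups by 0.29, more than the SD of either group. Whether the mean response differed between radiation types was tested directly, and 0 of the 9 genes passed in any of the 3 pairs of types (2.2%, 0.0615% and 0.779% of all genes were called; 2, 2 and 1 of the 9 had an unadjusted p under 0.05 in limma, as did 10.4%, 7.4% and 8.11% of all genes). The nearest was Ppara between Si and Ti (0.34 ± 0.12, adjusted p = 0.375).

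Across all 15 groups, 4 of the 9 genes differed in limma's F test, where 6.06% of all genes were called: Ppara (adjusted p = 0.0033), Angptl4 (0.0055), Pdk4 (0.072) and Ucp3 (0.102). With array medians aligned, Ppara did not pass (adjusted p = 0.446). Cpt1a was next (adjusted p = 0.255), and Plin5 (0.666) and Cpt1b (0.733) were farthest from a call. The order of the group means was mostly unresolved, because neighbours in the order differed by less than the larger of their SDs in all 14 steps for 7 of the genes, and in 13 of 14 for Cpt1a and Ppara. The exceptions were the step from Cs 80 cGy (8.09) to Cs 160 cGy (8.22), the highest mean of Cpt1a, and that from Cs sham to Ti sham in Ppara. Pdk4 was lowest at Ti 13 cGy (9.34 ± 0.55) and highest at Ti 26 cGy (10.87 ± 0.57), Angptl4 lowest at Cs 40 cGy (6.92 ± 0.42) and highest at Si 32 cGy (8.08 ± 0.26), and Cpt1b moved only from 10.76 to 10.92.

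The genes varied together from heart to heart. Pdk4 correlated over the 72 hearts with 7 of the other 8 genes: Ucp3 (Pearson's r = 0.78, Spearman's rho = 0.74), Acot1 (0.72, 0.76), Angptl4 (0.68, 0.70), Acot2 (0.66, 0.68), Cpt1a (0.64, 0.58), Plin5 (0.60, 0.60) and Cpt1b (0.48, 0.45). In two-sided permutation tests within batch, adjusted over the 8 pairs, p was 1.3e-05 for r in the first 6, where the raw p of 1e-05 is the smallest that the permutations can give, and 3.4e-05 for Cpt1b (1.3e-05 and 0.000149 for rho). Ppara was the exception (r = 0.18, adjusted p = 0.136; rho = 0.13, adjusted p = 0.268).

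The relations were present within each batch and within groups. For Ucp3, r was 0.81 in batch 1 and 0.75 in batch 2, and 0.84 for the deviations of hearts from their own group means. For Cpt1b, the weakest of the 7, it was 0.46, 0.51 and 0.54. Without the 2 hearts farthest from the Pdk4 median, Ti 13 cGy replicate 3 (8.52) and Cs sham replicate 4 (8.75), r ran from 0.46 for Cpt1b to 0.75 for Ucp3. With Ppara, r was 0.26 in batch 1 and 0.05 in batch 2, and 0.50 over the 24 Ti hearts against -0.16 over the Cs and -0.24 over the Si hearts. Among the 28 pairs without Ppara, r ran from 0.18 to 0.80 with a median of 0.59, and among the 8 pairs with Ppara from -0.08 to 0.27.

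**Figure D5:**
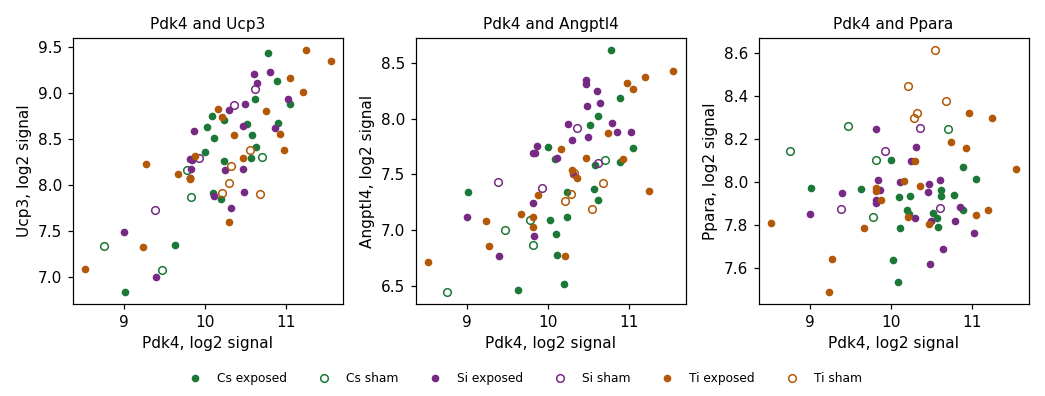
Batch-adjusted log2 signal of Ucp3, Angptl4 and Ppara (y axes) against that of Pdk4 (x axis) in the 72 hearts, coloured by radiation type, with open circles for sham hearts. Ucp3 (r = 0.78) and Angptl4 (r = 0.68) rise with Pdk4, and Ppara (r = 0.18) does not follow it.

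Of all 19504 other genes, Ucp3 had the highest r with Pdk4, and Acot1, Angptl4, Acot2 and Cpt1a ranked 3, 6, 7 and 10, Plin5 16 and Cpt1b 54, while Ppara ranked 2382. The 5 most similar genes outside the 9 were Hsd17b11, a lipid droplet dehydrogenase (r = 0.73), Abhd1, an alpha/beta hydrolase (0.71), Slc25a22, a mitochondrial glutamate carrier (0.69), Agpat3, an acyltransferase of phospholipid synthesis (0.66), and Slc25a34, a mitochondrial carrier (0.66). The 3 least similar were Hk1, a hexokinase of glycolysis (-0.63), Larp1b (-0.61) and Abracl (-0.60). These values describe likeness over 72 hearts that share 2 batches, with no test. For comparison, the clock gene Arntl had r = 0.14 with Pdk4 and Dbp -0.21.

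Other genes of the pathway were counted from lists drawn up with earlier results of these data known. The shares below therefore describe these lists and test nothing. Of 85 measured genes of fatty acid uptake, oxidation, lipid droplets, ketone bodies, pyruvate dehydrogenase and their regulators, 7 were called higher and 5 lower at Cs 160 cGy, which is 14.1%, against 6.91% of all genes. At Ti 6.5 cGy 1 was called in each direction (2.35%, against 5.6% of all genes), and at Ti 13 cGy (0.426% of all genes) and each Si dose 0 were called. Without the 2 arrays that lay with the other batch, the 7 and 5 at Cs 160 cGy shrank to 5 higher and 2 lower of 85, where 5.15% of all genes were called. At Ti 6.5 cGy 0 were then called (0.743% of all genes). At Cs 160 cGy the carnitine shuttle had 1 of 4 higher (Cpt2, the inner transferase, 0.29 ± 0.11, adjusted p = 0.232), and mitochondrial beta-oxidation 0 of 14, with a median of 0.01. Of the peroxisomal oxidation genes, Pex11a was higher (0.35 ± 0.11, adjusted p = 0.161). Lipid droplet genes went both ways, with Lipe, the hormone-sensitive lipase (0.54), and Mgll, the monoglyceride lipase (0.39), higher and Dgat1, an enzyme of triglyceride synthesis (-0.55), lower. Dlat, the acetyltransferase subunit of the pyruvate dehydrogenase complex that Pdk4 acts on, was lower by 0.32 ± 0.07 (adjusted p = 0.051), and Oxct1, which activates ketone bodies for use, was lower by 0.23 ± 0.08 (adjusted p = 0.215). Of these named genes, Cpt2, Pex11a, Mgll, Dgat1 and Dlat also passed without the 2 arrays, and Lipe and Oxct1 did not.

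Among the regulators, Txnip, an inhibitor of glucose uptake, was higher at Cs 80 (0.92 ± 0.18, adjusted p = 0.062), Cs 120 (0.68 ± 0.18, adjusted p = 0.208) and Cs 160 cGy (1.02 ± 0.20, adjusted p = 0.026), 3 comparisons that share the Cs sham hearts. In those sham hearts Txnip was lower than in Si sham hearts by 0.94 ± 0.20 (adjusted p = 0.0094), a difference close in size to the rises. Foxo3, a transcription factor of the fasting response, was higher at Cs 160 cGy by 0.58 ± 0.16 (adjusted p = 0.099). Both Txnip (1.03) and Foxo3 (0.50) passed at Cs 160 cGy without the 2 arrays. Rxrg, a partner receptor of PPAR alpha, was lower at Cs 120 (-0.33 ± 0.09, adjusted p = 0.239) and Cs 160 cGy (-0.26 ± 0.10, adjusted p = 0.248), at the latter only with the 2 arrays. At Ti 6.5 cGy, Gpihbp1, which holds lipoprotein lipase on the vessel wall, was lower by 0.30 ± 0.10 (adjusted p = 0.212) and Pdp1, the phosphatase that reverses the action of Pdk4, was higher by 0.27 ± 0.10 (adjusted p = 0.239), neither of which passed without the 2 arrays.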

How the data were processed

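Hearts were profiled on 72 Affymetrix arrays (Clariom S Mouse), with 24 per radiation type. The authors deposited log2 values made by RMA (background correction, quantile normalization and summary per probe set), of a version that the sources used here do not give. The array medians of the deposited values still ran from 4.17 to 6.35 over the 22206 transcript-cluster probe sets, so these were quantile normalized again with limma 3.58.1 in R 4.3.3. Values without this step are among the alternatives. Of the probe sets, 19572 had 1 gene symbol, 0 several and 2634 none in the platform annotation, and the probe set with the highest mean stood for each of 19505 genes. No depth applies to arrays, and the number of hearts limits the precision.

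Groups, doses, batches and replicate numbers came from the labels. limma was fitted per radiation type with group and batch as terms (all 72 arrays for sham groups, interactions and the F test), with the Benjamini-Hochberg method over the 19505 genes of each comparison. Each heart was 1 sample, and the limma p-values weigh a difference against the spread between hearts, which all groups of a fit share. Values of single hearts had the batch difference over all 72 arrays removed with the groups kept. Correlations used 100000 permutations within batch (Python, numpy). The fits were tested on simulated data. Deviations of same-numbered hearts of different groups had a median r of -0.01, -0.02 and 0.02 in Cs, Si and Ti. Single pairs reached 0.30, 0.45 and 0.24, so the medians do not exclude that some hearts were paired. The hearts were treated as unpaired. All 9 genes are named. Other pathway genes are named where they passed at a dose against sham, at most 3 a list and comparison by size. Look-alikes are named by Pearson's r. The members and lists were chosen with earlier results of these data known. Array values as deposited, aligned medians, other batch models, single batches, the 2 arrays that lay with the other batch left out or counted to it, all arrays in 1 fit, 2 groups only, a dim filter (log2 of 5 in 4 arrays), other moderation, a replicate block, each array left out and a threshold of 0.05 were tried.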

Additional observations from a re-analysis of the deposited data

Results flagged for a closer look

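In 135 sets of 4 or 5 hearts (9 genes in 15 groups), 5 had a heart whose gap to its neighbour was large for the range of its group, a rate that chance alone gives in about 1 in 20 sets. Cs 120 cGy replicate 3 was low for Ucp3 (6.84, the others 8.52 to 9.14) and for Cpt1a (7.43, the others 7.94 to 8.06). In the same group, replicate 1 was high for Plin5 (8.40, the others 7.89 to 8.03). Ti 26 cGy replicate 1 was low for Cpt1b (10.67, the others 10.83 to 10.85), and Ti 3 cGy replicate 2 was high for Acot1 (6.73, the others 6.33 to 6.44).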

How the results depend on the processing

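The 5 calls at Cs 160 cGy became 3 with a replicate block, 2 with aligned array medians, 1 with the 2 arrays that lay with the other batch counted to batch 2 or at a threshold of 0.05, and 0 with the values as deposited, no batch term, batch as a random block, batch 1 only (with or without the 2 arrays) or only the 2 compared groups. The 1 call at Cs 120 cGy became 0 at 0.05, with deposited or aligned values, no batch term, a random block, either batch alone, batch 1 without the 2 arrays or 2 groups only. The 1 call at Ti 6.5 cGy became 6 with the values as deposited and 0 at 0.05, with aligned medians, no batch term, either batch alone, batch 1 without the 2 arrays or 2 groups only. The 2 calls at Ti 13 cGy became 1 with aligned medians, a random block, trend and robust moderation or a replicate block, and 0 at 0.05, with deposited values, no batch term, either batch alone or batch 1 without the 2 arrays. At Ti 26 cGy, 0 became 1 without the 2 arrays, with them counted to batch 2, with all 72 arrays, the dim filter or trend and robust moderation. Batch 2 alone gave 3 calls at Cs 80 cGy, and deposited values gave 1 at Ti 3 cGy.

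The 1 call of the Cs line became 0 at 0.05, with deposited values, no batch term or a random block, 2 with the 2 arrays counted to batch 2 or trend and robust moderation, and 3 with the dim filter, and Ucp3 was lost with a cubic B-spline (adjusted p = 0.253). The Si line gave 5 with deposited values, and the spline gave 3 for Ti. Between sham groups, Cs against Si gave 6 with deposited values and 2 without a batch term, and the 1 call of Si against Ti became 0 at 0.05, with deposited or aligned values or no batch term. The 4 calls of the F test became 2 at 0.05 or without a batch term, 9 with deposited values and 7 with the dim filter, and Ppara was lost with aligned medians (adjusted p = 0.446). For the mean over doses, a comparison added after seeing the data, the 1 call of Ti became 0 with deposited or aligned values, and Si gave 1 without a batch term. The correlation of Pdk4 with Ppara passed with deposited values (0.56), aligned medians (0.25) and no batch removal (0.41), and the other 7 correlations passed under all 8 alternatives, which were chosen after seeing the data. For most alternatives in this section the share of all genes called was not counted. Their counts therefore do not show whether the 9 genes stood out. The causes were not tested, except that single batches and 2-group fits hold fewer hearts.

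Among the called differences, the direction of only 1 turned under any alternative, that of Ppara at Ti 6.5 cGy, to 0.0093 with the values as deposited (adjusted p = 0.983). Leaving out 1 heart at a time gave 3 to 6 calls at Cs 160 cGy, 0 to 2 at Cs 120 cGy, 0 to 1 at Ti 6.5 and Ti 26 cGy, 1 to 2 at Ti 13 cGy, 0 to 3 for the Cs line, 0 to 1 for Cs against Si sham, Si against Ti sham and the Cs with Si and Si with Ti comparisons of response, 4 to 6 for the F test and 0 to 1 for the mean over Cs doses. Under the replicate block 3 single calls were lost, those of Cpt1a (adjusted p = 0.253) and Pdk4 (adjusted p = 0.317) at Cs 160 cGy and of Pdk4 at Ti 13 cGy (adjusted p = 0.269). The labels name no pairing of same-numbered hearts.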
